A study of Homo sapiens with 6 samples.

Results

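The genes described here are those of the syncytins and of trophoblast fusion: 6 genes derived from the envelopes of ancient retroviruses (ERVW-1, ERVFRD-1, ERVV-1, ERVV-2, ERVMER34-1 and ERVH48-1) and 4 cellular genes that act with them (GCM1, SDC1, MFSD2A and SLC1A5). They were taken by symbol from GENCODE release 29, and all 10 were found among the 58735 genes of the count table. The libraries came from H9 (WA09) cells, a line of human embryonic stem cells (hESCs), which were kept on a feeder layer of MEF and then directed for 9 days toward endoderm of the third pharyngeal pouch (3PPE), the tissue that gives rise to the thymus. All cells received Activin A with WNT3A and the ROCK inhibitor Y-27632 at the first day, then Activin A with B27, and from day 4 on Matrigel B27, RA, SB431542, BMP4 and IWP2. At day 7 they were given a negative control siRNA (siControl, genotype label WT, 3 libraries) or a siRNA against HOXA3 (siHOXA3, genotype label HOXA3 knockdown, 3 libraries) by lipofection, were moved to opti-MEM some hours later and were harvested at day 9. A single cell line was used, and nothing in the labels says that the 3 libraries of a group came from separate differentiations, so the p-values measure the spread between these libraries, which may be technical.

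Syncytins are retroviral envelope proteins that the host has kept. In the placenta, syncytin-1 (ERVW-1) and syncytin-2 (ERVFRD-1) sit on the surface of mononuclear trophoblast cells and fuse them into the syncytiotrophoblast, the multinucleated layer that makes the hormones of pregnancy. Fusion needs a receptor on the neighbouring cell: SLC1A5, a neutral amino acid transporter, for syncytin-1, and MFSD2A, a lipid transporter, for syncytin-2. ERVH48-1 encodes suppressyn, which binds SLC1A5 and blocks syncytin-1, and GCM1 is the transcription factor that switches on the syncytins after cyclic AMP signalling.

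The targeted gene was examined first. HOXA3 had 248, 240 and 236 counts in siControl and 159, 199 and 220 counts in siHOXA3, or 16.0 ± 0.601 against 13.2 ± 2.27 CPM (counts per 1000000 of the normalized library size, SD, n = 3 each). The groups overlapped, and the log2 fold change of -0.27 (SE 0.157) had an adjusted p of 0.828 by edgeR's quasi-likelihood test with Benjamini-Hochberg adjustment. Total counts lay between 14117150 and 15282307 per library, at which 3 counts, the limit that a count of 0 allows, are worth 0.196 to 0.211 CPM for counting error only. The library siHOXA3 replicate 2 stood apart: its deviation from the gene means of its group fell with exon length (Spearman rho -0.33 across genes, which are not independent replicates). The rho was 0.23 and 0.24 in the other siHOXA3 libraries and -0.012, -0.0042 and -0.0099 in siControl. Within a group the deviations of a gene sum to 0, so the siHOXA3 values depend on each other. The markers of the labelled cell type were largely absent: 7 of 11 genes listed for pouch endoderm were too low to be tested, and 4 of these had under 3 counts in every library, while EPCAM, an epithelial surface protein, and EYA1 were present (262 and 36.2 CPM in siControl). The median log2 fold change of the 4 tested genes was 0.20, and it was -0.079 without siControl replicate 1 and 0.068 without siHOXA3 replicate 2. FOXA2 and SOX17, which define endoderm, had at most 2 counts in any library. Some genes listed here for amnion or trophoblast were abundant in both groups. The amnion markers GABRP and VTCN1 had 952 ± 82.5 against 935 ± 62.3 CPM and 568 ± 39.0 against 637 ± 39.0 CPM in siControl and siHOXA3. The trophoblast factors KRT7 and HAND1 had 661 ± 57.2 against 622 ± 54.2 CPM and 333 ± 18.0 against 359 ± 22.4 CPM (SD, n = 3 each). Other genes of the same lists were much lower. The trophoblast factors ELF5, CDX2 and TP63 had at most 7, 9 and 29 counts in a library. The amnion markers ISL1 and TFAP2B had at most 206 and 250 counts. The cells are therefore named here by their groups only.

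The sequences of ERVV-1 and ERVV-2 are shown first because these were the members with the lowest p and because they are near copies of each other. Both lie on the plus strand of chromosome 19 of GRCh38, ERVV-1 as 1 exon at chr19:53013921-53016122 and ERVV-2 with 2 exons at chr19:53044738-53051076. Over 1430 aligned bases, their coding sequences (1431 and 1605 bases in the GENCODE release 29 transcripts) differed at 23 positions, an identity of 98.4%. Of all 50-base stretches of the ERVV-1 transcript, 51.0% also occur in ERVV-2, and 46.1% of those of ERVV-2 occur in ERVV-1, so reads could be split between them and the counting of reads that match both is not given in the sources used here. A 90-base window with 9 mismatches is printed below with the differing bases in capitals, from coding base 1305 to 1394 in ERVV-1 and from 1308 to 1397 in ERVV-2, counted from the start codon.
ERVV-1: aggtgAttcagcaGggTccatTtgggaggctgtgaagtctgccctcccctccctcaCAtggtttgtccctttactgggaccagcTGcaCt
ERVV-2: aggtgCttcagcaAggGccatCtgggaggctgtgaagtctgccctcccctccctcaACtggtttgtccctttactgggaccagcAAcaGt

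The region around the RefSeq start of ERVV-1 (GRCh38.p14, chr19:53013671-53013970, plus strand, 250 bases before to 50 after the start) is printed because ERVV-1 showed the lowest p among the members, with the letters AGATAA, a motif bound by GATA factors, in capitals at position -64.
ERVV-1 promoter: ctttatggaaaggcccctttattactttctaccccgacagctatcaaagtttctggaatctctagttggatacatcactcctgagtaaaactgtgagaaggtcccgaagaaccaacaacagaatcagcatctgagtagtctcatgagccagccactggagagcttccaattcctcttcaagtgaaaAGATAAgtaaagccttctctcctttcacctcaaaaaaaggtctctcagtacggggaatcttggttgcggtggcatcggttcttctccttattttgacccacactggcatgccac
These letters, read on both strands, occurred in 10.3% of 35116 promoters of the same length. The RefSeq table held promoters for 7 of the 10 genes (10 windows). ERVFRD-1, ERVV-2 and ERVH48-1 had no entry. The letters ATGCGGGT, bound by GCM factors, and TAATTA, bound by homeobox factors, were found in 0 of these 10 windows, against 0.259% and 4.84% of all promoters, and GCCNNNGGC, bound by TFAP2 factors, was found in windows of SLC1A5 alone, against 23.2% of all promoters. A match is a description of letters and not a bound site.

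Levels between genes are compared per length, as TPM (counts divided by exon length and scaled to a total of 1000000 in every library). SLC1A5, the syncytin-1 receptor, was highest at 214 TPM (mean of 6 libraries, range 191 to 245), above 96.5% of the 16561 genes tested. ERVH48-1, the inhibitor of syncytin-1, came second at 89.5 TPM (range 81.6 to 96.8), above 89.3% of them. SDC1, a heparan sulfate proteoglycan that coats the syncytiotrophoblast, followed at 30.9 TPM (range 27.0 to 37.0). The ranges of these 3 genes over the 6 libraries did not overlap with each other or with that of the next gene.

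The other envelope-derived genes, among them both syncytins, and GCM1 were low. ERVMER34-1, which encodes the shed envelope protein HEMO, had 5.25 TPM, ERVFRD-1 3.55 TPM, GCM1 2.47 TPM, ERVV-2 1.85 TPM, ERVV-1 1.76 TPM and ERVW-1 1.61 TPM, each a mean over 6 libraries, against a median of 17.2 TPM over all tested genes. From ERVMER34-1 down to ERVW-1 each gene's range overlapped that of its neighbour in the order, so these neighbours are not resolved, although ERVMER34-1 (range 4.26 to 6.34 TPM) lay above GCM1, ERVV-2, ERVV-1 and ERVW-1 in every library. MFSD2A, the receptor of syncytin-2, was last at 0.362 TPM (range 0.0594 to 0.531), below ERVW-1 in 6 of 6 libraries. With the longest transcript in place of all exons, ERVW-1 had 2.24 TPM and moved from rank 9 to rank 6. It then lay above GCM1 (1.88 TPM), ERVV-2 (1.41 TPM) and ERVV-1 (1.34 TPM), so its place in the order depends on the length used.

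**Figure D1:**
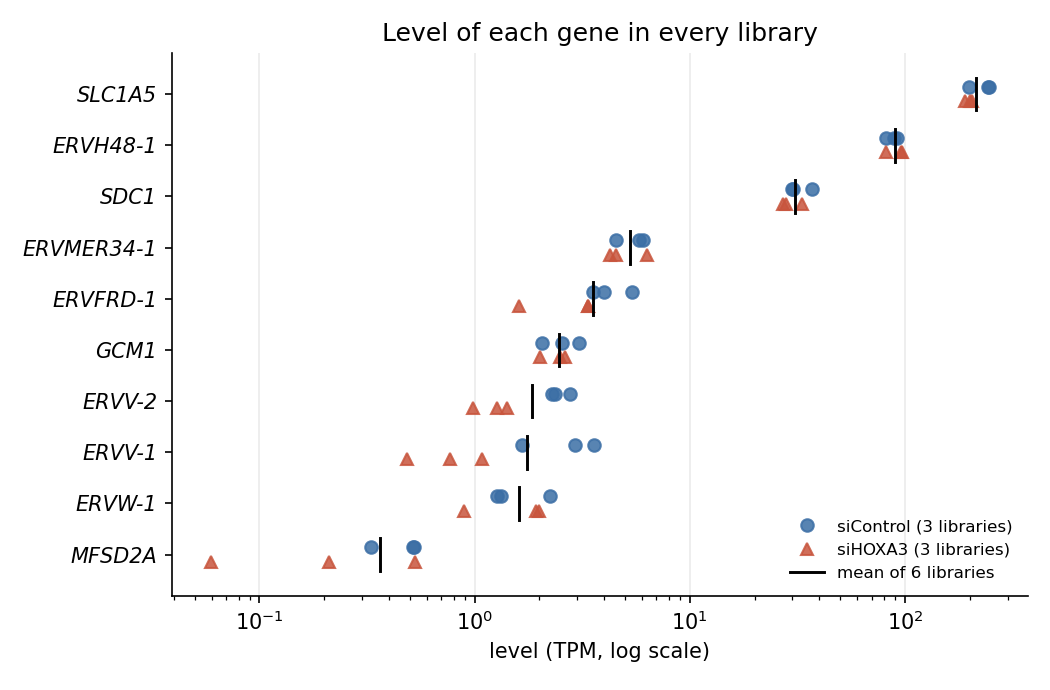
Level of each gene in TPM (log scale) in every library, with circles for siControl, triangles for siHOXA3 and a line for the mean of 6 libraries. SLC1A5, ERVH48-1 and SDC1 lie between 27.0 and 245 TPM, all above the other 7 genes, and MFSD2A has the lowest mean.

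The comparison of siHOXA3 with siControl asks whether these genes differed at day 9 after the siRNA against HOXA3 was given at day 7. In these libraries HOXA3 itself did not pass the adjusted test (adjusted p = 0.828 by edgeR). After adjustment, 0 of the 9 tested members passed 0.05 by edgeR, against 0.00604% of all genes tested (1 of 16561). limma-voom also called 0 of them, and DESeq2 called 0 but gave no adjusted p for ERVV-1 and ERVV-2. At an unadjusted p under 0.05, 2 of the 9 were lower, against 2.57% of all genes, and 0 were higher, against 3.79% (6.36% in either direction). The 2 were ERVV-1 and ERVV-2, near copies that could share reads, so they are not separate results. ERVV-1 passed the filter on low counts through its siControl libraries only, so it could be tested only if it differed in this direction. Of all 10 members, 3 (ERVFRD-1 and the same pair) had every siHOXA3 value below every siControl value, against 6.89% of all genes, and 0 the reverse, against 6.38%. The median log2 fold change over the 9 tested members was -0.08, against 0.0019 over all tested genes, with 7 below 0 and 2 above. An exact permutation test of 3 libraries against 3 cannot give a p under 0.1. In bulk RNA, fewer cells of a type and less RNA per cell cannot be told apart.

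**Figure D2:**
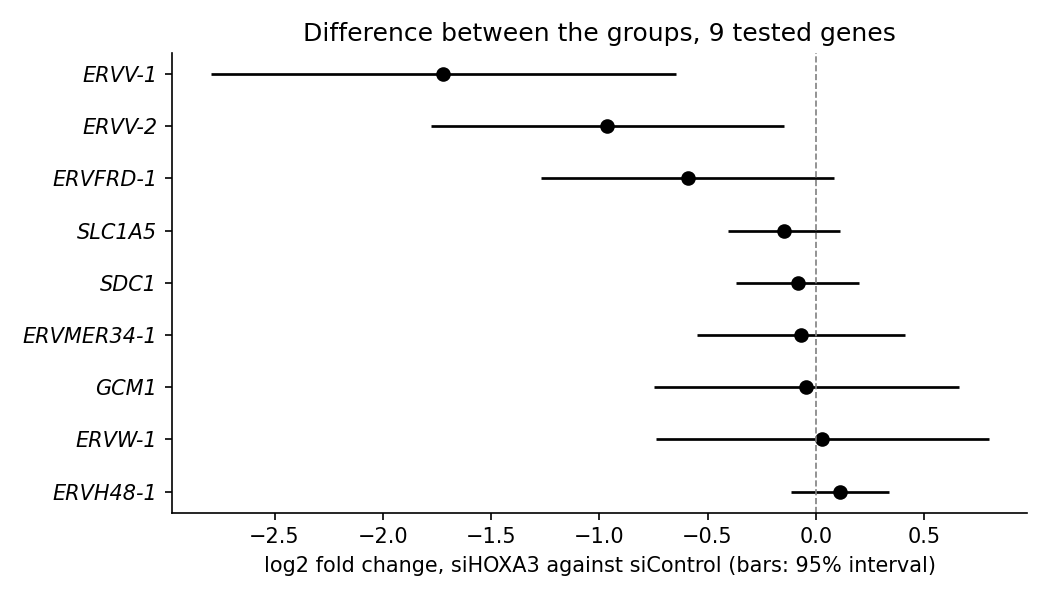
Log2 fold change of siHOXA3 against siControl for the 9 tested genes, with 95% intervals from the edgeR fit. The intervals of ERVV-1 (-2.79 to -0.64) and ERVV-2 (-1.78 to -0.15) lie below 0, and the intervals of the other 7 genes include 0.

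Among the fusogens, ERVW-1 (ENSG00000242950, chr7:92468380-92477986, minus strand), the gene of syncytin-1, had 31, 30 and 52 counts in siControl and 46, 23 and 42 in siHOXA3. The highest and the lowest library fell in different groups and the groups overlapped. Its mean was 2.48 ± 0.793 against 2.54 ± 0.887 CPM (SD, n = 3 each), with a log2 fold change of 0.03 (95% interval -0.74 to 0.80, adjusted p = 0.988 by edgeR). The interval includes changes of over 1.5-fold in either direction, so a difference of that size could not be shown with these libraries.

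ERVFRD-1 (ENSG00000244476, chr6:11102489-11111732, minus strand), the gene of syncytin-2, had 44, 50 and 66 counts in siControl and 41, 22 and 39 in siHOXA3. Every siHOXA3 library was below every siControl library after scaling, and siHOXA3 replicate 2, the library that stood apart, was the lowest. The mean was 3.52 ± 0.710 CPM against 2.34 ± 0.760 CPM (SD, n = 3 each), with a log2 fold change of -0.59 (SE 0.308, 95% interval -1.27 to 0.08, adjusted p = 0.801 by edgeR). Without siHOXA3 replicate 2 the log2 fold change of ERVFRD-1 was -0.34, and with limma-voom and quality weights it was -0.35. ERVFRD-1 lies within the span of SMIM13 on the opposite strand, with 0 exon bases in common, and SMIM13 had a log2 fold change of -0.21 (adjusted p = 0.843 by edgeR).

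ERVV-1 (ENSG00000269526), an envelope gene expressed in placenta, had 14, 25 and 30 counts in siControl and 4, 10 and 6 in siHOXA3. All siHOXA3 libraries lay below all siControl libraries. It had 1.52 ± 0.524 against 0.453 ± 0.197 CPM (SD, n = 3 each), with a log2 fold change of -1.72 (SE 0.489, 95% interval -2.79 to -0.64), or 3.29-fold lower. The unadjusted p was 0.00445 and the adjusted p 0.561 by edgeR, with adjusted p-values from 0.0841 to 0.997 over the alternatives. Without siHOXA3 replicate 2 the log2 fold change of ERVV-1 was -2.10. ERVV-1 passed the filter on low counts through its siControl libraries only, 0 of 3 siHOXA3 libraries being past the cutoff of 0.665 CPM, so that it had to differ in this direction to be tested.

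ERVV-2 (ENSG00000268964) had 22, 26 and 21 counts in siControl and 13, 10 and 11 in siHOXA3. These groups did not overlap either, and the spread of the libraries was small, 11.6% of the mean in siControl, against 24.1% from counting error alone at its mean count over the 6 libraries. The mean was 1.52 ± 0.176 against 0.776 ± 0.114 CPM (SD, n = 3 each), with a log2 fold change of -0.96 (SE 0.371, 95% interval -1.78 to -0.15, unadjusted p = 0.0236, adjusted p = 0.725 by edgeR), or 1.95-fold lower. The unadjusted p of ERVV-2 was above 0.05 without siControl replicate 2 (0.0808), without siHOXA3 replicate 2 (0.0777, log2 fold change -0.87) or without siHOXA3 replicate 3 (0.0581), all by edgeR. For ERVV-2, 2 of 3 siHOXA3 libraries were past the filter's cutoff.

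Because reads could be split between the copies, their counts were also added, a sum chosen after seeing the data. ERVV-1 and ERVV-2 together had 2.41, 3.36 and 3.33 CPM in siControl and 1.17, 1.33 and 1.19 CPM in siHOXA3, and no test was run on the sum. The mean was 3.04 ± 0.542 against 1.23 ± 0.0862 CPM (SD, n = 3 each), or 2.47-fold lower. ERVV-1 lies inside ZNF702P, a zinc finger pseudogene on the opposite strand, with 0 exon bases in common, and whether the counting used strand is not given in the sources used here. ZNF702P had the opposite direction, 15.6 ± 2.83 against 22.9 ± 1.47 CPM (SD, n = 3 each), with groups that did not overlap and a log2 fold change of 0.55 (SE 0.152, adjusted p = 0.549 by edgeR). The coding genes beside the pair, ZNF816 and ZNF160, had log2 fold changes of -0.05 and -0.07.

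**Figure D3:**
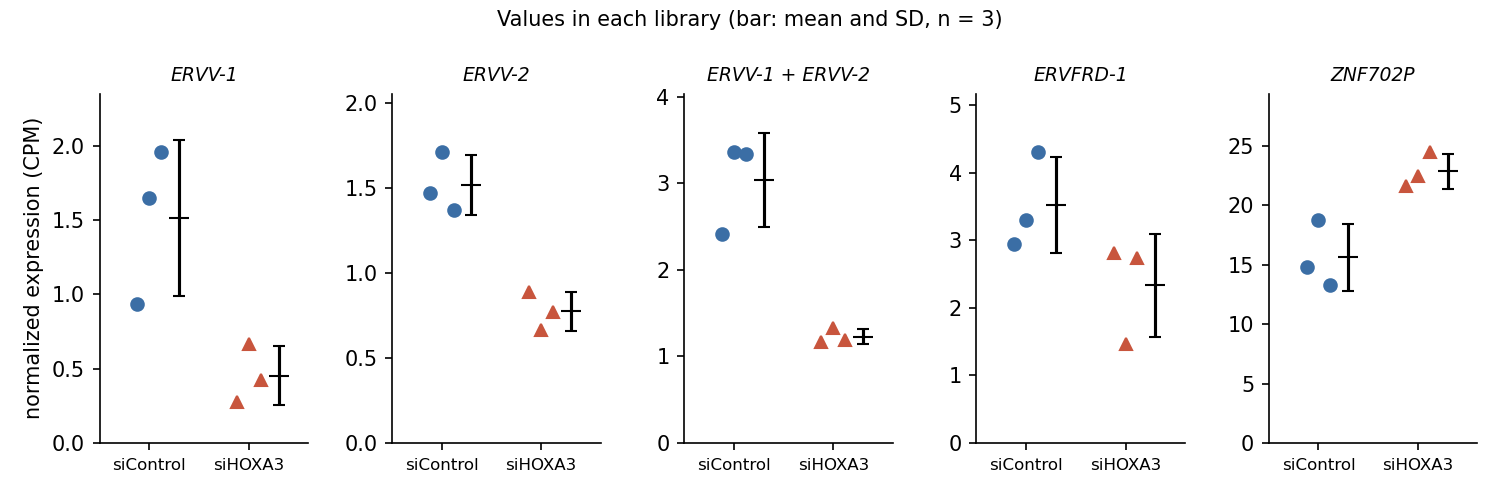
Normalized expression in CPM of ERVV-1, ERVV-2, their sum, ERVFRD-1 and ZNF702P in each library, with the mean and SD of 3 libraries beside the points and a separate axis from 0 for each gene. The siHOXA3 values lie below the siControl values for the first 4 panels and above them for ZNF702P.

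ERVMER34-1 (ENSG00000226887, chr4:52722618-52751640, minus strand) had 90, 95 and 70 counts in siControl and 70, 73 and 92 in siHOXA3. The groups overlapped, with 5.62 ± 0.915 against 5.37 ± 0.947 CPM (SD, n = 3 each) and a log2 fold change of -0.07 (95% interval -0.55 to 0.41, adjusted p = 0.960 by edgeR). ERVH48-1 (ENSG00000233056, chr21:42916803-42925646, minus strand), annotated as a lincRNA in GENCODE release 29, had 994, 978 and 881 counts in siControl and 1025, 974 and 980 in siHOXA3. The groups overlapped here as well, with 62.9 ± 4.70 against 67.9 ± 2.94 CPM (SD, n = 3 each) and a log2 fold change of 0.11 (95% interval -0.11 to 0.34, adjusted p = 0.871 by edgeR). Its interval was the narrowest of the 9 genes. Like those of ERVW-1, ERVMER34-1, GCM1, SDC1 and SLC1A5, the interval of ERVH48-1 excludes a change as large as that estimated for ERVV-1 or ERVV-2.

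The inhibitor made up most of the envelope-derived reads. The 6 envelope-derived genes summed to 77.5 ± 3.77 CPM in siControl and 79.4 ± 4.86 CPM in siHOXA3 (SD, n = 3 each), and ERVH48-1 was 78.7% to 87.6% of the sum in the 6 libraries. The other 5 genes summed to 14.7 ± 1.10 against 11.5 ± 2.13 CPM, a log2 ratio of -0.35 with groups that did not overlap, and no test was run on either sum.

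The receptors and regulators gave overlapping groups. SLC1A5 (ENSG00000105281, chr19:46774883-46788594, minus strand) had 3083, 3153 and 2491 counts in siControl and 2389, 2801 and 2444 in siHOXA3. After scaling, siControl replicate 3 was the lowest of the 6 libraries, and the log2 fold change was -0.15 (192 ± 25.6 against 174 ± 11.2 CPM, SD, n = 3 each, 95% interval -0.40 to 0.11, adjusted p = 0.856 by edgeR). Of the 50-base stretches of SLC1A5, 21.3% are shared with AC008622.2, which overlaps it on the opposite strand and had nearly no counts. MFSD2A (ENSG00000168389, chr1:39955112-39969968, plus strand) had 8, 8 and 5 counts in siControl and 8, 1 and 3 in siHOXA3 and was too low to be tested. Its groups shared the highest count.

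GCM1 (ENSG00000137270, chr6:53126964-53148829, minus strand) had 27, 22 and 32 counts in siControl and 21, 29 and 26 in siHOXA3. These overlapped, with 1.78 ± 0.321 against 1.73 ± 0.256 CPM (SD, n = 3 each) and a log2 fold change of -0.04 (95% interval -0.75 to 0.66, adjusted p = 0.983 by edgeR). SDC1 (ENSG00000115884, chr2:20200797-20225433, minus strand) had 412, 420 and 503 counts in siControl and 451, 408 and 359 in siHOXA3. Its groups overlapped too, with 29.4 ± 3.02 against 27.7 ± 2.91 CPM (SD, n = 3 each) and a log2 fold change of -0.08 (95% interval -0.37 to 0.20, adjusted p = 0.922 by edgeR).

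Close relatives of the cellular members were in some cases far more abundant per length. SDC4, another syndecan, had 321 TPM and SDC2 51.5 TPM, against 30.9 TPM for SDC1 (means of 6 libraries). SLC1A3, a glutamate transporter of the SLC1A5 family, had 114 TPM, and GCM2, the parathyroid paralog of GCM1, had at most 5 counts in a library. Among 8 tested paralogs of 11, 0 had an unadjusted p under 0.05 and 0 had groups that did not overlap. The median log2 fold change was -0.03, and SLC1A1 (-0.46) and SLC1A4 (-0.23), both amino acid transporters, were among those with the lowest p.

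Other genes of retroviral origin gave no call. Of 9 other genes with an ERV symbol 5 were tested, and 0 had an unadjusted p under 0.05 (median log2 fold change 0.11, 0.30 without siHOXA3 replicate 2 and -0.071 without siHOXA3 replicate 3). ERV3-1, an envelope gene of another family, had 25.9 against 27.9 CPM (log2 fold change 0.11), and ERVK13-1, ERVMER61-1 and ERVK9-11 had log2 fold changes of 0.17, 0.21 and -0.41. Of 13 genes derived from the gag part of retrotransposons 8 were tested, with 0 at an unadjusted p under 0.05 and a median of 0.05. PEG10, the most abundant of them and required for placenta formation in mice, had 581 ± 5.84 against 566 ± 71.9 CPM (SD, n = 3 each, log2 fold change -0.04). Of 5 transcripts driven by HERVH elements in stem cells only ESRG was tested (log2 fold change 0.12).

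Genes that carry out or regulate fusion were measured as a list of 47, all tested. It holds membrane fusion and adhesion proteins, the cyclic AMP pathway and modifiers of GCM1, and 0 passed the adjusted test. At an unadjusted p under 0.05, 1 was lower and 3 were higher, against 2.57% and 3.79% of all tested genes. The median log2 fold change was -0.04 (30 below 0, 17 above). Without siHOXA3 replicate 2 the median was 0.012. PPARG, a nuclear receptor needed for placental development, was the lower gene (19.3 ± 0.778 against 15.7 ± 1.10 CPM, log2 fold change -0.30, adjusted p = 0.757 by edgeR). The higher genes were IFITM3, an interferon-induced protein that hinders membrane fusion (91.3 ± 5.49 against 119 ± 22.8 CPM, log2 fold change 0.38, adjusted p = 0.718), LGALS1, the lectin galectin-1 (0.56, adjusted p = 0.729), and DUSP23, a phosphatase acting on GCM1 (0.70, adjusted p = 0.741), all by edgeR.

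Products of the syncytiotrophoblast were uneven, many near 0 and some abundant. Of 36 listed genes, 17 had under 3 counts in every library, 10 of them with no count at all, and among these were most of the chorionic gonadotropin beta, placental lactogen and pregnancy-specific glycoprotein genes. In all, 22 of the 36 were too low to be tested. Others were above the median of 17.2 TPM over all tested genes: HSD3B1 (173 TPM), CAPN6 (93.4 TPM), PAPPA2 (64.5 TPM) and CGA (25.6 TPM, means of 6 libraries). In the 14 tested genes 0 passed the adjusted test. At an unadjusted p under 0.05, 4 were lower and 1 higher, against 2.57% and 3.79% of all tested genes. The median log2 fold change was -0.21 (11 below 0, 3 above). HSD3B1, which makes progesterone, had 125 ± 3.52 against 91.8 ± 5.64 CPM (SD, n = 3 each, log2 fold change -0.45, adjusted p = 0.458 by edgeR). Its adjusted p was under 0.05 with DESeq2 (0.0315), with limma-voom (0.00912) and without siHOXA3 replicate 2 (0.00676). CYP19A1, the aromatase that makes estrogen, had 10.2 ± 1.59 against 6.40 ± 0.451 CPM (SD, n = 3 each, log2 fold change -0.67, adjusted p = 0.549 by edgeR). PAPPA and CAPN6 had log2 fold changes of -0.47 and -0.43, and PAPPA2, named as the 1 higher gene, had one of 0.43 with overlapping groups. Without siHOXA3 replicate 2 the log2 fold change of PAPPA2 was 0.66 (adjusted p = 0.00102 by edgeR).

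Markers of trophoblast, amnion and other cell types were measured beside these genes, and 0 passed the adjusted test. Of 12 trophoblast factors 10 were tested, with a median log2 fold change of 0.11, and TFAP2A (0.23) was the gene with an unadjusted p under 0.05. VGLL1 (0.24) and GATA3 (0.17) were higher and ITGA6 (-0.15) lower in every siHOXA3 library. Of 5 amnion markers all were tested, with a median of 0.16, and TFAP2B had 10.3 ± 0.408 against 15.6 ± 1.74 CPM (SD, n = 3 each, log2 fold change 0.60, adjusted p = 0.486 by edgeR). The amnion markers summed to 1476 to 1726 CPM in siControl and 1600 to 1732 CPM in siHOXA3, and the syncytiotrophoblast products to 431 to 475 against 348 to 474 CPM. Of 6 extravillous trophoblast markers 5 were tested, with ITGA1 lower (-0.41) and DIO2 (0.50) and MMP2 (0.27) higher at an unadjusted p under 0.05. Of all tested genes, 2.57% were lower and 3.79% higher at that threshold. Over the 6 tested of 8 pluripotency markers the median was 0.12, with POU5F1 at 0.36 and LIN28A at 0.13, and the 8 mesenchyme markers one of 0.14, with DCN at 0.47 and COL1A2 at 0.18. Whether the share of trophoblast-like cells differed between the groups was not tested.

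**Figure D4:**
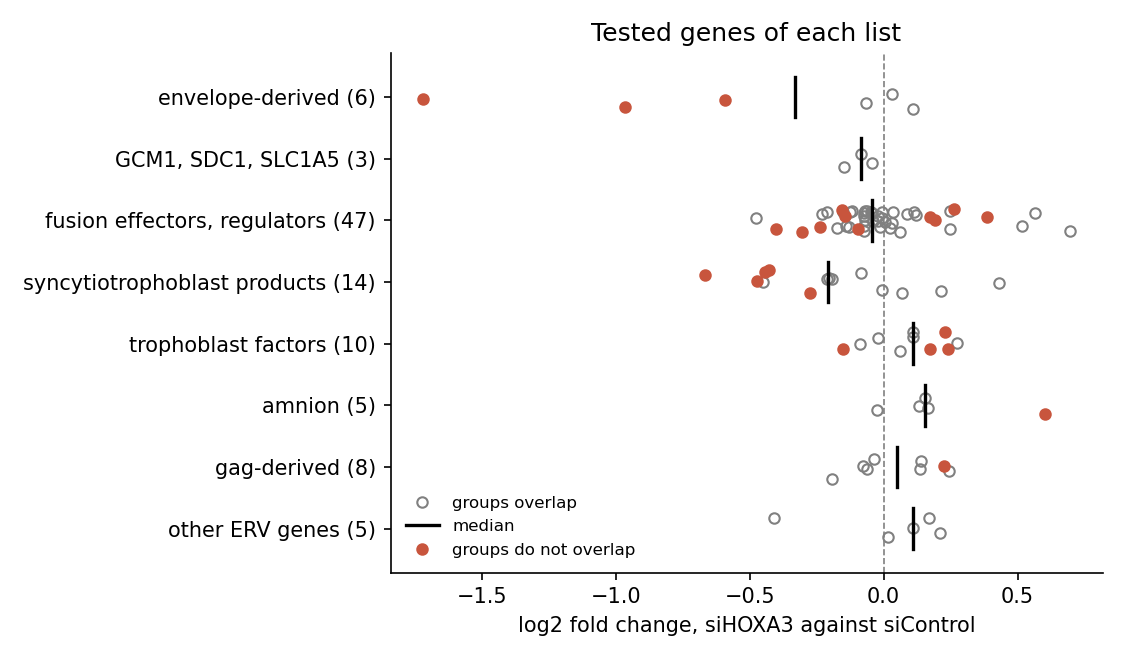
Log2 fold change of siHOXA3 against siControl for the tested genes of 8 groups, with filled points for genes whose groups did not overlap and a line at the median. The medians plotted run from -0.33 over the 6 envelope-derived genes to 0.16 over the amnion markers, and the number of genes tested is given beside each name.

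Among coding genes beside the other members, NDUFV3, next to ERVH48-1, had a log2 fold change of 0.28 with groups that did not overlap (adjusted p = 0.741 by edgeR). GATAD1 (-0.04), USP46 (-0.18), RASL11B (-0.33), ELOVL2 (-0.06), NEDD9 (0.08) and PKNOX1 (-0.01) had overlapping groups.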

How the data were processed

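RNA-seq was performed on 3 siControl and 3 siHOXA3 libraries at day 9. The authors deposited raw read counts per gene, whole numbers without normalization. The study's methods and labels name LM-Seq and a SMARTER kit. The aligner, the counting program and the handling of strand and of reads matching several genes are not given in the sources used here. The submitters' processing notes name the mouse builds GRCm38 and mm10, although the identifiers are human, and all 58735 matched GENCODE release 29 (GRCh38), the source of symbols, positions, exon lengths and transcript sequences. Promoters were RefSeq windows.

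The counts were tested with edgeR 4.0.16 in R 4.3.3, using filterByExpr (16561 genes kept), TMM normalization, robust quasi-likelihood fit, two-sided test and Benjamini-Hochberg adjustment over all genes kept. CPM is the count per 1000000 reads of the TMM-scaled library size, and TPM uses the union of exons. Alternatives were DESeq2 1.42.0, limma-voom (limma 3.58.1), other normalizations and filters, the replicate number as a block, and each library left out in turn. On simulated counts for this comparison (16571 genes), edgeR found 96% of the genes given a log2 fold change of 2 and 82% of the genes given 1. The simulation gave every gene the same dispersion and had no library that stood apart, and the changed genes were drawn from all genes kept. These shares therefore do not measure the power for the members with few counts in the real libraries. The genes named from each list were the 4 tested genes with the lowest unadjusted p, of which a few are left out here, and not every neighbouring gene is reported here. Genes named for their level, or to spell out a count of 5 or fewer, were chosen after their values were seen. The members and the lists were chosen with earlier results of these data known.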

Additional observations from a re-analysis of the deposited data

How the results depend on the processing

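The 116 log2 fold changes of the 9 tested members under the alternatives included 107 with the direction of the reported value and 9 reversed, all with a library left out. ERVW-1 was reversed to -0.083 and -0.11 without siControl replicates 1 and 2 and to -0.15 and -0.089 without siHOXA3 replicates 1 and 3, ERVMER34-1 to 0.018 and 0.0077 without siControl replicate 2 and siHOXA3 replicate 1, GCM1 to 0.087 and 0.073 without siControl replicate 3 and siHOXA3 replicate 1, and SDC1 to 0.0051 without siControl replicate 3. With each library left out in turn, these ranged from -0.15 to 0.32 (ERVW-1), -0.22 to 0.018 (ERVMER34-1), -0.17 to 0.087 (GCM1) and -0.17 to 0.0051 (SDC1). The number of members past an adjusted p of 0.05 was 0 under every alternative run, with no adjusted p for ERVV-1 and ERVV-2 under DESeq2. At an unadjusted p it was 1 with the filter of CPM above 1, under which ERVV-1 was not tested, 3 with limma-voom (SLC1A5 besides ERVV-1 and ERVV-2) and 1 to 2 with a library left out. Over all genes this threshold passed 1053 of 16561 in the reported fit, 1001 of 15357 with that filter and 2215 of 16561 with limma-voom. With a library left out it passed from 643 of 17153 (without siControl replicate 2) to 1828 of 17144 (without siHOXA3 replicate 2). Members whose groups did not overlap numbered 3 to 5 with a library left out, the 5 arising without siHOXA3 replicate 1. Groups separate more easily with fewer libraries, and the share of all genes was not computed there. The rise is therefore not a result about the members. Over all listed genes 0 passed the adjusted test, against 1 with DESeq2 (HSD3B1), 4 with limma-voom (HSD3B1, DIO2, PAPPA2 and TFAP2B) and 0 to 3 with a library left out, the 3 arising without siHOXA3 replicate 2. The summed envelope-derived level had a log2 ratio of 0.034, and -0.35 without ERVH48-1. Of 156 list medians under the alternatives 14 moved, among them gag-derived genes to 0.13 without siControl replicate 1, mesenchyme markers to 0.051 without siControl replicate 3 and fusion genes to -0.099 without siHOXA3 replicate 1. The cause of these shifts was not tested. Over all genes, 1 passed the adjusted test, against 38 with DESeq2, 67 with limma-voom, 100 with no filter and 24 without siHOXA3 replicate 2.

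Same-numbered libraries were not shown to be paired: the correlations of their deviations were 0.16, 0.11 and -0.07. When the number entered the fit as a replicate block, 0 members passed the adjusted test and 2 the unadjusted one. Over all 16561 genes, 4 passed the adjusted test, against 1, and 1109 the unadjusted one, against 1053. Counts were lowest for ERVV-1, ERVV-2, GCM1, ERVW-1 and MFSD2A, with at most 52 in a library.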

Other observations

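The genes whose level followed ERVH48-1 most closely over the 6 libraries were ZNF454 (Pearson r = 0.999), GRAMD4 (0.986) and TAF15 (0.980), computed on log2 of CPM plus 0.5. Those closest to SLC1A5 were CCNYL1 (0.992), B3GAT1 (0.989) and IMPDH1 (0.989). With 16561 genes and 6 libraries that share depth and handling, 178 genes had an r above 0.9 with ERVH48-1 and 63 with SLC1A5, so these names are a description only.

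LGALS16, a placental galectin, had 10, 8 and 13 counts in siControl and 4, 5 and 5 in siHOXA3, and KISS1, a peptide secreted by trophoblast, had 7, 7 and 7 counts against 2, 4 and 0. Both were too low to be tested, had groups that did not overlap, and were picked after their values were seen.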
